A study of Mus musculus with 16 samples.

Results

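The 39 Hox genes of the mouse were taken from the 24091 genes of the count tables by symbol, Hox followed by a cluster letter from a to d and a number, which leaves out the antisense and host entries of the same regions. All 39 were in both tables, 11 in the HoxA cluster, 10 in HoxB, 9 in HoxC and 9 in HoxD. Polyadenylated RNA was sequenced from islets picked by hand from male mice at 60 weeks of age, 5 KO (Pdx1:Cre;Tff2fl/fl) and 5 control (Tff2fl/fl), and from whole pancreata of embryos at E16.5, 3 KO (Pdx1:Cre;Tff2fl/fl) and 3 control (Tff2fl/fl). Both genotypes carry the floxed alleles of Tff2, the gene of the secreted peptide trefoil factor 2, and the KO animals alone carry Cre. The Pdx1 promoter drives that Cre in the pancreatic epithelium, so mesenchyme, nerves and vessels of a KO pancreas keep the floxed gene unless they also made Cre. The embryos came from Pdx1:Cre;Tff2fl/+ males and Tff2fl/fl females, per the labels, which name no litters, and each library had its own animal number.

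Hox genes encode transcription factors with a homeodomain that binds DNA. Their order along each cluster matches the order in which they are expressed along the head-to-tail axis of the embryo, and paralogue groups 1 to 13 number that order across the 4 clusters. Cells keep much of the Hox set of the body level at which they arose, so the set found in a tissue is used as a record of position. In the gut and its organs, Hox expression is best known from the mesoderm around the epithelium. Groups 1 to 3 are called anterior here, groups 4 to 8 middle and groups 9 to 13 posterior.

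The homeobox is the 180-base stretch that encodes the homeodomain. It is shown for Hoxc6 and Hoxc8, which differed between genotypes at E16.5, and for Hoxa5, the most abundant member, because reads from such similar stretches could be divided wrongly among genes. The sequences were read from GENCODE vM21 transcripts (GRCm38). Hoxc6 is in lower case throughout, and capitals in the other sequences mark bases that differ from Hoxc6.
Hoxc6: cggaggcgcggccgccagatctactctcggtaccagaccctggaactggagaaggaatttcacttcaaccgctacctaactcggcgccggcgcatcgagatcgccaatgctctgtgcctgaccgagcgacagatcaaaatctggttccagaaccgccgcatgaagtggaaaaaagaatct
Hoxc8: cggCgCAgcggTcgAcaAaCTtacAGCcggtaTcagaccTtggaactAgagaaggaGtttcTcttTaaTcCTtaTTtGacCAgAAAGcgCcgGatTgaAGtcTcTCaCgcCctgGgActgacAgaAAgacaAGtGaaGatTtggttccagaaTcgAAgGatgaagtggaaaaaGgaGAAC
Hoxa5: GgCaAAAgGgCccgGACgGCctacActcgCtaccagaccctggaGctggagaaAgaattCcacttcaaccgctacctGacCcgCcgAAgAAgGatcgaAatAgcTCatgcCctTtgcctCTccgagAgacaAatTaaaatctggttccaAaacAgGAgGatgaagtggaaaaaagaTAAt
Hoxc6 shared 75.6% of these bases with Hoxa5 and 67.8% with Hoxc8. The longest unbroken run in common was 17 bases with Hoxa5 and 14 with Hoxc8. Over whole transcripts, the longest shared run had a median of 15 bases across the 741 pairs of members, and 3 pairs shared a run of over 50 bases. These were Hoxd3 with Hoxd4 at 388 bases, Hoxc5 with Hoxc10 at 168 and Hoxa6 with Hoxb4 at 52. Hoxb9 and Hoxc9 came next, with a shared run of 50 bases. Levels of those 6 genes, and of Hoxb9 and Hoxc9, are uncertain where reads fell in the shared run. By coordinates, 10 members also overlap another entry of the tables (Hoxa3, Hoxa4, Hoxa5, Hoxa6, Hoxa11, Hoxb5, Hoxb6, Hoxc5, Hoxd3 and Hoxd4), and the labels do not say whether counting used strand.

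Total counts ran from 22595400 to 32385042 in islets and from 14866194 to 22699934 in E16.5 pancreata. Tff2 had 0, 12, 16, 8 and 2 reads in the KO islet libraries, against 25, 69, 30, 135 and 62 in the control islets. At E16.5 it had 51, 147 and 27 reads in KO pancreata, against 848, 406 and 611 in controls. The tissues carried the markers of their labels, and no gene of a 15-gene islet endocrine list or of a 13-gene acinar list was at 0 in any group. The islet endocrine list summed to between 160967 and 198001 CPM (counts relative to the TMM-scaled library size) in islets and to between 1101 and 3467 CPM at E16.5. A 16-gene mesenchyme and fibroblast list summed to 125 to 363 CPM in islets and to 19232 to 27382 CPM at E16.5. All results are from bulk tissue, in which fewer cells of a type and less RNA per cell cannot be told apart.

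Promoters are shown for 3 abundant members, as far as the sequence table holds them: Hoxc4, the most abundant HoxC gene, Hoxa5, and Hoxd8, the most abundant HoxD gene. Each is the 250 bases before a RefSeq transcript start on the gene's own strand (GRCm38.p6), at chr15:103034145-103034394 on the plus strand, chr6:52204588-52204837 on the minus strand and chr2:74704365-74704614 on the plus strand. The Hoxa5 and Hoxd8 windows end where the genes of the count tables begin, while the Hoxc4 window lies inside the Hoxc4 interval of those tables (chr15:103018936-103036852), before a start further downstream. Capitals mark matches on either strand to the motifs searched, which were TTTAT, the core bound by CDX factors, AGGTCA, the retinoic acid receptor repeat unit, and TGATTNAT, the site bound by HOX with PBX.
Hoxc4: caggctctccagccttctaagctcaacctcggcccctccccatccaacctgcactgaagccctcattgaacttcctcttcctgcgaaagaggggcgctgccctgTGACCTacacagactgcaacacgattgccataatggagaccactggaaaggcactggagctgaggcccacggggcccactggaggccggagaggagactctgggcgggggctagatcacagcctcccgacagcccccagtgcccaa
Hoxa5: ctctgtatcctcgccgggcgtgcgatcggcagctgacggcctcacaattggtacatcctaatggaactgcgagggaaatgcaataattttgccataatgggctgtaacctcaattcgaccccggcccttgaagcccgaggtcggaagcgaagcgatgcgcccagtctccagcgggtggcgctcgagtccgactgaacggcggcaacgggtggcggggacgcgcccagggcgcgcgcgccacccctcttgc
Hoxd8: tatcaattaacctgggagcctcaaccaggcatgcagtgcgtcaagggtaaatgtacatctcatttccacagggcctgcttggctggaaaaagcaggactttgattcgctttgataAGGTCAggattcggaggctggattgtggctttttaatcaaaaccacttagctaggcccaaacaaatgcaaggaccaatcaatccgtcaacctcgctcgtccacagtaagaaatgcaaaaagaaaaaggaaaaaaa
Of the 39 members, 22 matched the table by symbol, with 24 windows, and Hoxc5, Hoxc6 and Hoxc8 were not among them. AGGTCA was in 6 of these windows (25%) and in 14% of all 32851 windows of the table. TGATTNAT was in 2 (8.33%) and in 2.82% of all, and TTTAT in 9 (37.5%) and in 37.3% of all. The shares of Hox windows thus rest on few windows. The Hox windows held a median of 12.5 CpG dinucleotides, against 6 over all windows, and the Hoxa5 window held 28, the Hoxc4 window 8 and the Hoxd8 window 6. A match is a description of letters and not a site in use.

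The E16.5 pancreas expressed an anterior and middle Hox set drawn mainly from HoxA and HoxB. Levels of different genes are compared in RPKM (TMM-scaled CPM per kb of the length given in the tables), and a member is called expressed at a group mean of at least 1 RPKM. By that rule 17 members were expressed in KO pancreata and 15 in control pancreata, none of them posterior. HoxB gave 7 in both groups, HoxA 5 in both, HoxD 1 in both, and HoxC 4 in KO and 2 in control pancreata. Summed over members, middle genes made up 67.1% of Hox RPKM in KO and 65.3% in control pancreata, and posterior genes 4.54% and 2.26%.

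**Figure D1:**
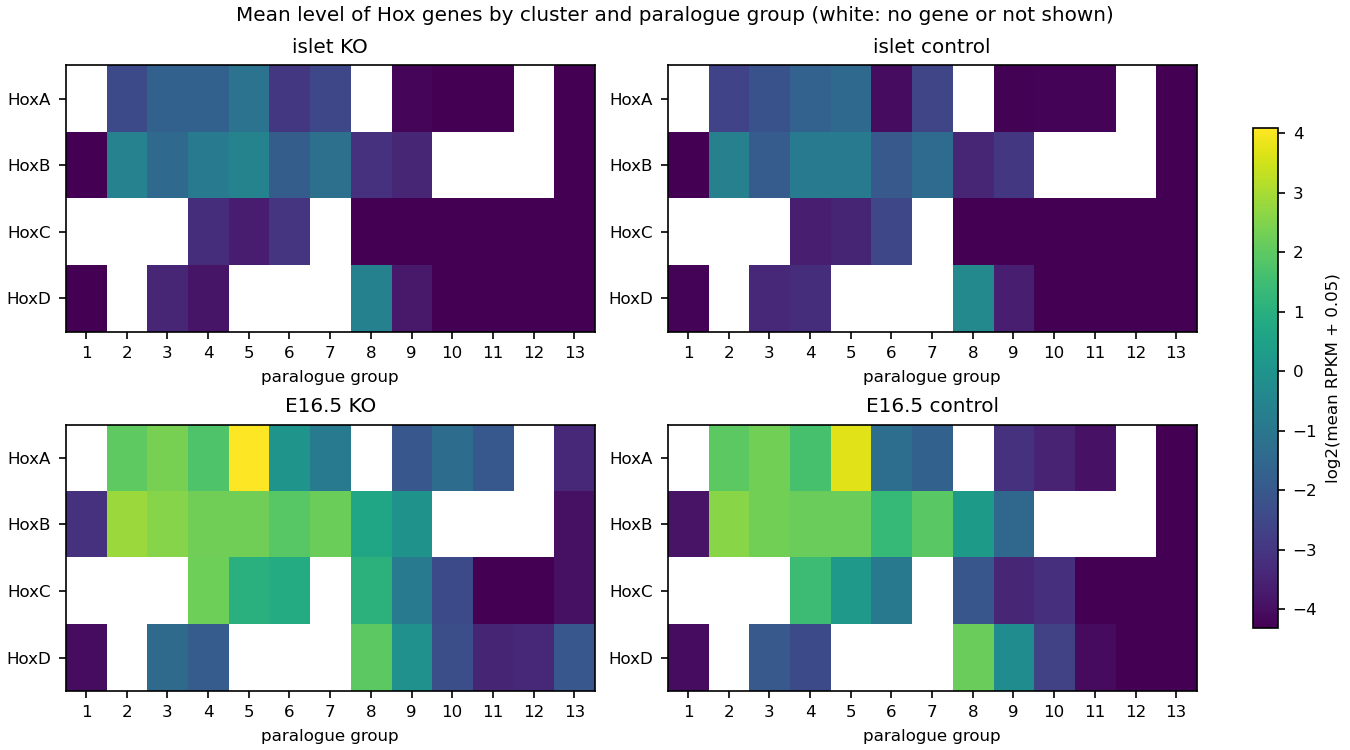
Mean level of Hox genes on a log2(RPKM + 0.05) colour scale, by cluster (rows) and paralogue group (columns), for islets above and E16.5 pancreata below, with KO left of control. Anterior and middle genes of HoxA and HoxB are bright at E16.5, HoxC groups 5 to 8 are brighter in KO than in control pancreata, and no member reaches 1 RPKM in islets.

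The most abundant member was Hoxa5, which patterns the neck and upper trunk skeleton and the lung. It had 14.2, 18.6 and 17.3 RPKM in KO pancreata, against 14.3, 11.0 and 14.1 RPKM in control pancreata. The lowest KO library lay inside the control range, so the groups overlapped, and the difference did not pass (log2 fold change 0.34, SE 0.13, edgeR adjusted p = 0.162). No other member was above 7.78 RPKM in any library.

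Hoxb2, known for its part in hindbrain segment identity, came next with 6.15, 7.78 and 7.05 RPKM in KO and 6.64, 5.81 and 5.62 RPKM in control pancreata. Hoxb3 had 5.41, 5.90 and 6.28 RPKM in KO, against 5.05, 4.43 and 5.15 RPKM in control pancreata. Each KO value of Hoxb3 was above each control value by a narrow margin, but the difference was not called (log2 fold change 0.26, SE 0.10, edgeR adjusted p = 0.139). Hoxa3, needed for the thymus and parathyroid glands, had 4.55, 5.71 and 5.10 RPKM in KO, against 5.26, 4.12 and 5.28 RPKM in control pancreata. Hoxb5, expressed in the enteric nervous system, had 4.22, 5.43 and 4.61 RPKM in KO and 4.86, 3.72 and 4.80 RPKM in control pancreata. For Hoxb2, Hoxa3 and Hoxb5 the KO and control libraries interleaved. In the order of KO means, Hoxb2 at 6.99 ± 0.82 RPKM, Hoxb3 at 5.86 ± 0.43, Hoxa3 at 5.12 ± 0.58, Hoxb5 at 4.75 ± 0.62 and Hoxb4 at 4.74 ± 0.80 (SD, n = 3) followed each other with mean ± SD ranges that overlapped between neighbours, while Hoxa5 at 16.7 ± 2.25 RPKM stood clear of them.

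Of the other anterior members, Hoxa2, the selector gene of the second pharyngeal arch, averaged 3.98 ± 1.44 RPKM in KO and 3.90 ± 0.53 RPKM in control pancreata (SD, n = 3 each). Hoxd3 averaged 0.322 ± 0.032 and 0.203 ± 0.026 RPKM, and Hoxb1 and Hoxd1 had at most 7 reads over the libraries of any group. Among HoxD genes, Hoxd8 alone was above 1 RPKM, with 3.46, 4.21 and 3.86 RPKM in KO and 4.82, 3.76 and 4.64 RPKM in control pancreata. Its groups overlapped, and it was the only tested member with a fold change below 0 (log2 fold change -0.20, SE 0.14, edgeR adjusted p = 0.405).

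The middle groups of HoxA and HoxB held further expressed members, and the expressed HoxC members are described with the genotype comparison below. Hoxa4 averaged 3.40 ± 0.95 RPKM in KO and 3.04 ± 0.70 RPKM in control pancreata, Hoxb7 4.55 ± 0.69 and 3.79 ± 0.69 RPKM, and Hoxb4 4.74 ± 0.80 and 4.47 ± 0.37 RPKM (SD, n = 3 each). Hoxb6, expressed early in the lateral plate mesoderm, averaged 3.65 ± 0.22 RPKM in KO and 2.44 ± 0.54 RPKM in controls, and Hoxb8 1.49 ± 0.33 and 1.14 ± 0.22 RPKM. Below the limit were Hoxa6 at 0.979 ± 0.267 RPKM in KO and 0.359 ± 0.121 RPKM in controls, from 35 and 14 reads over 3 libraries each, Hoxa7 at 0.517 ± 0.164 and 0.256 ± 0.061 RPKM, and Hoxd4 at 0.220 ± 0.056 and 0.136 ± 0.006 RPKM. Of these 8 genes, Hoxa6 and Hoxd4 were too low to be tested and none of the others passed.

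The first comparison set KO against control pancreata at E16.5. Hoxc5, Hoxc6 and Hoxc8, neighbours in the middle of the HoxC cluster, rose in KO pancreata, and no Hox gene fell. Of the 21 members that passed the filter on low counts, 3 were higher and 0 lower at an edgeR adjusted p under 0.05. Over all 14914 genes tested, 3.75% were higher and 2.68% lower. All 3 were among the 4 HoxC members tested, and none of 6 HoxA, 8 HoxB and 3 HoxD members passed.

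Hoxc8, known for patterning thoracic vertebrae and motor neuron pools, lies at chr15:102990539-102994254 on the plus strand (mm10). It had 3.27, 1.80 and 1.18 RPKM in KO pancreata 01, 18 and 19, from 146, 63 and 47 reads. The control pancreata 02, 08 and 13 had 0.0578, 0.142 and 0.364 RPKM, from 3, 6 and 15 reads. The lowest KO value was far above the highest control value, and the KO libraries themselves were spread widely. KO exceeded control by 3.51 on the log2 scale (SE 0.59, edgeR adjusted p = 0.0237). Because 1 control library alone reached the count limit of the filter, Hoxc8 was tested mainly through its KO libraries.

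Hoxc6, expressed at forelimb and thoracic levels of the trunk, spans chr15:102998714-103011881 on the plus strand. Its level was 2.35, 1.40 and 1.55 RPKM in KO, against 0.388, 0.408 and 0.628 RPKM in control pancreata. All 3 KO values were well above every control value, with no overlap. On the log2 scale KO exceeded control by 1.91 (SE 0.31, edgeR adjusted p = 0.0231).

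Hoxc5, from chr15:103014008-103017429 on the plus strand, had 2.06, 2.06 and 1.81 RPKM in KO, against 1.09, 0.882 and 1.33 RPKM in control pancreata. The groups did not overlap and the KO libraries lay close together. The excess in KO was 0.85 on the log2 scale (SE 0.19, edgeR adjusted p = 0.0420). Hoxc5 shares its 168-base run with Hoxc10, which had 0 to 12 reads per library, and its interval contains the microRNA entry Mir615.

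Hoxc4, at the anterior end of the cluster, had 5.95, 4.46 and 3.57 RPKM in KO and 2.47, 2.34 and 3.21 RPKM in control pancreata. Its groups did not overlap, but it fell just outside the threshold, as Hoxc5 fell just inside it (log2 fold change 0.81, SE 0.21, edgeR adjusted p = 0.0597). Hoxb9, the posterior-most gene tested in HoxB, had 1.20, 0.678 and 0.903 RPKM in KO and 0.101, 0.477 and 0.341 RPKM in control pancreata. No libraries of the groups overlapped for Hoxb9 either (log2 fold change 1.63, SE 0.47, edgeR adjusted p = 0.0762). Hoxc9, which sets thoracic motor neuron identity, was too low to be tested, with 22, 15 and 8 reads in KO and 0, 1 and 3 reads in control pancreata.

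**Figure D2:**
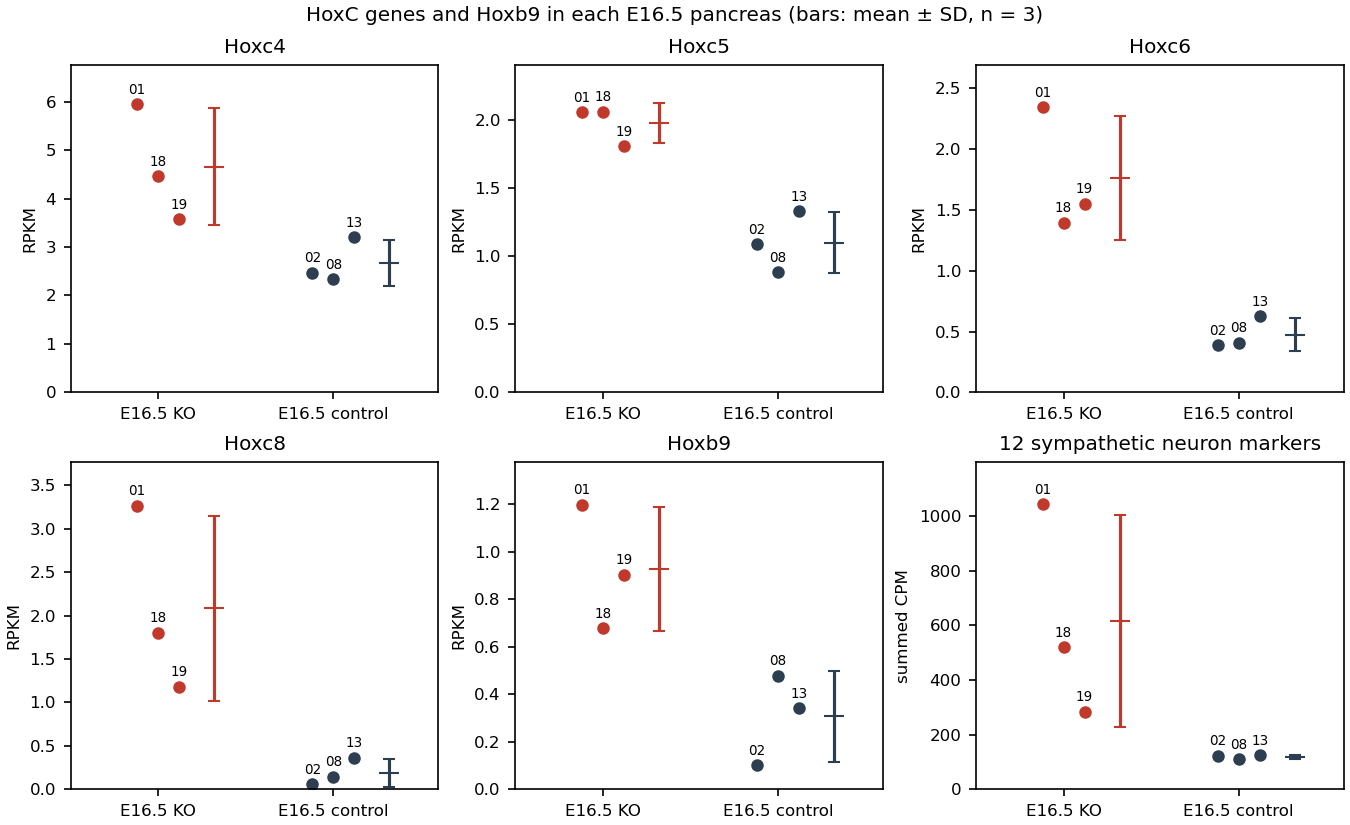
Level of Hoxc4, Hoxc5, Hoxc6, Hoxc8 and Hoxb9 (RPKM) and summed level of 12 sympathetic neuron markers (CPM) in each E16.5 library, KO left and control right, with animal numbers and mean ± SD (n = 3). Every KO point lies above every control point in all 6 panels, and KO 01 is highest of all libraries for Hoxc4, Hoxc6, Hoxc8, Hoxb9 and the marker sum.

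The HoxC cluster as a whole summed to 14.3, 10.3 and 8.78 RPKM in KO 01, 18 and 19, against 4.01, 3.80 and 5.81 RPKM in control 02, 08 and 13. HoxC thus gave 13.5% of all Hox RPKM in KO pancreata and 7.04% in control pancreata. HoxA summed to 26.8, 36.3 and 34.3 RPKM in KO and 28.8, 22.1 and 29.1 RPKM in control pancreata, and HoxB to 30.9, 35.5 and 32.7 RPKM in KO and 29.7, 24.5 and 28.3 RPKM in controls. The HoxA sums overlapped between genotypes, and the HoxB sums were apart by a margin far smaller than that of HoxC. KO 01, which had the highest HoxC sum, had the lowest HoxA and HoxB sums of the KO libraries.

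Markers of sympathetic neurons were higher in KO pancreata too. Of 12 such markers 11 rose in KO pancreata, with a median log2 fold change of 3.13, and none was at 0 in either group. Their summed level was 1043, 521 and 284 CPM in KO 01, 18 and 19, against 123, 110 and 124 CPM in control 02, 08 and 13. Dbh, the enzyme that makes noradrenaline, had 96.0, 41.6 and 19.5 CPM in those KO libraries and between 0.137 and 0.345 CPM in controls. The KO libraries stood in the same order for Hoxc8, Hoxc4 and these markers, though not for Hoxc6 or Hoxb9, of which KO 19 had more than KO 18. That order was not particular to sympathetic markers. A Schwann and enteric neural list had it too, at 576, 434 and 366 CPM. So did the islet endocrine list, at 1762, 1511 and 1101 CPM, though that list was lower in KO than in control pancreata. Hoxc5 was level in KO 01 and KO 18, at 2.06 RPKM each, with 1.81 RPKM in KO 19. The part of cells with any of these markers in the Hox differences was not tested.

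Other cell types moved as well. Of 15 islet endocrine markers 12 fell, with a median log2 fold change of -1.07 and summed levels of 1101 to 1762 CPM in KO and 2651 to 3467 CPM in control pancreata. Of 8 liver markers 0 rose and 1 fell by edgeR, but KO 01, the library with the highest HoxC sum, stood apart with a summed level of 1822 CPM, against 446 to 633 CPM in each other E16.5 library. Without KO 01, Hoxc6 and Hoxc8 still passed by edgeR and Hoxc5 did not. The mesenchyme and fibroblast list had 0 of 16 genes called, with a median log2 fold change of 0.06 and summed levels of 19374 to 27382 CPM in KO and 19232 to 22403 CPM in control pancreata. Of 10 smooth muscle and pericyte markers 5 rose, and of 10 Schwann and enteric neural markers 5 rose and 1 fell. Of 15 pan-epithelial markers 10 fell, with summed levels of 2298 to 2382 CPM in KO and 2860 to 3307 CPM in control pancreata. The acinar list summed to 54034 to 99689 CPM in KO and to 108710 to 127225 CPM in controls. Their part in the Hox differences was not tested. With libraries scaled to the pan-epithelial list in place of TMM, the median log2 fold change of all genes became 0.41 and 16 of 21 Hox genes were called higher, among 10110 calls over all genes.

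Taking all 21 members tested, 20 had a log2 fold change above 0, where 49.8% of all genes did. The median was 0.26 over these members and -0.00 over all genes tested. It was 0.46 without control 02 and 0.80 over the 37 members with at least 1 count. Above 0 were 16 of 21 members under mesenchyme scaling, and without KO 18 16 of 23. It was 1.38 over the 4 HoxC members, 0.26 over the 8 HoxB, 0.17 over the 3 HoxD and 0.11 over the 6 HoxA members. The KO values were all above the control values for 9 members, and 15% of all genes were non-overlapping in that direction. Besides the 4 HoxC genes, Hoxb3 and Hoxb9, these were Hoxa7, Hoxb6 and Hoxd3, with edgeR adjusted p of 0.125, 0.118 and 0.147. Hoxa7, Hoxb9 and Hoxc8 reached the count limit in fewer control than KO libraries, so their presence among the tested members favours a higher KO value and these counts are descriptions.

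**Figure D3:**
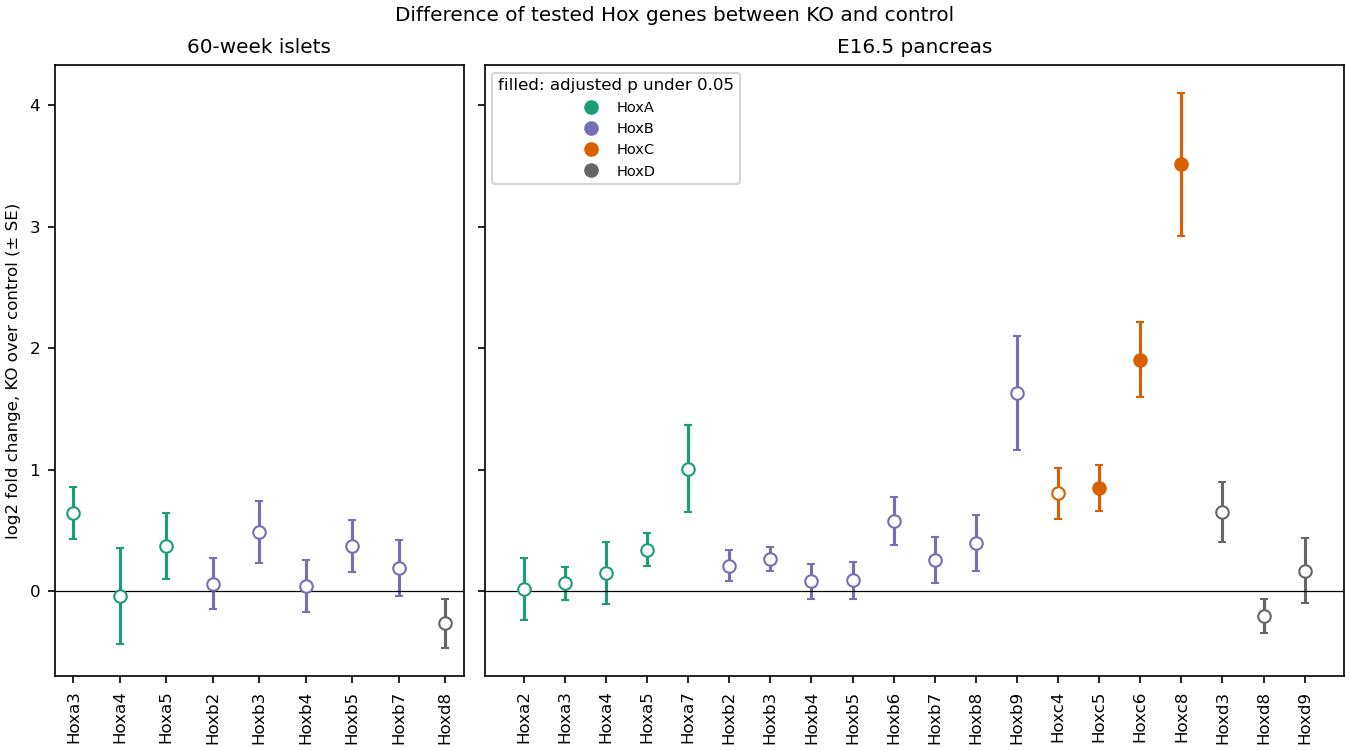
Log2 fold change of KO over control (± SE) for the 9 Hox genes tested in islets (left) and 20 of the 21 tested at E16.5 (right), coloured by cluster, with filled points for an adjusted p under 0.05. The 3 filled points are Hoxc5, Hoxc6 and Hoxc8 at E16.5, Hoxd8 lies below 0 in both tissues, and all islet points are open.

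The calls rest on few animals. Without control 02, 08 or 13, edgeR called 0 Hox genes and 0, 4 and 0 of all genes. The edgeR adjusted p of Hoxc6 was then 0.138, 0.108 and 0.0665. DESeq2 called both Hoxc6 and Hoxc8 in each of 6 fits with 1 library left out, which were added after seeing the data.

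Posterior Hox genes were low at E16.5, with every group mean under 1 RPKM, and reads beyond group 9 were uneven. Single libraries passed 1 RPKM for Hoxb9 (1.20 in KO 01) and Hoxd9 (1.13 in KO 18 and 1.01 in control 08). The 16 posterior members summed to 2.91, 2.67 and 5.64 RPKM in KO 01, 18 and 19, against 0.827, 1.62 and 1.92 RPKM in control 02, 08 and 13. Hoxd9 was the highest posterior member in controls and did not differ by the test (0.913 ± 0.201 RPKM in KO and 0.811 ± 0.185 RPKM in controls, SD, n = 3 each, log2 fold change 0.17, SE 0.27, edgeR adjusted p = 0.729).

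Most reads of the genes beyond group 9 came from KO 19. Hoxa10, known for its part in the uterus and lumbar skeleton, had 3, 2 and 50 reads in KO 01, 18 and 19 and 0, 0 and 6 in control 02, 08 and 13. Hoxa11, which acts in the kidney and forearm, had 1, 0 and 22 reads in KO and 0, 0 and 2 in controls. Hoxd13, a gene of digits and the hind end of the gut and urogenital tract, had 1, 0 and 23 reads in KO and none in 3 controls. Hoxb13, Hoxc13 and Hoxd10 had at most 7 reads in any library. KO 19 also had the highest count of Hoxa9, Hoxa13, Hoxc10, Hoxd11 and Hoxd12, and control 13 was the highest control for Hoxa9, Hoxa10, Hoxa11, Hoxc10 and Hoxd11. KO 19 held 24 reads of Nr5a1, a transcription factor of gonad, adrenal and spleen stroma, against 1 to 6 in each other E16.5 library. Of 12 nephron and kidney markers 6 were tested and 1 rose, and their summed level was 158, 151 and 170 CPM in KO 01, 18 and 19, against 122 to 148 CPM in control pancreata. Of 7 adrenal cortex markers 2 were tested and 0 passed by edgeR, with Cyp11b1 and Cyp21a1 at 0 in KO pancreata and a sum of 7.90 CPM in KO 19, against 4.09 to 6.495 CPM in each other library. KO 19 was also highest for 6 mesothelium markers, at 552 CPM against 295 to 502 CPM elsewhere, and for spleen stroma markers, at 49.95 CPM against 27.8 to 37.4 CPM elsewhere. Nr5a1, at 1.43 CPM in KO 19, is counted in both the adrenal cortex and the spleen stroma sums, so these are not separate from its reads. The part of cells with these markers in the posterior Hox counts was not tested.

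**Figure D4:**
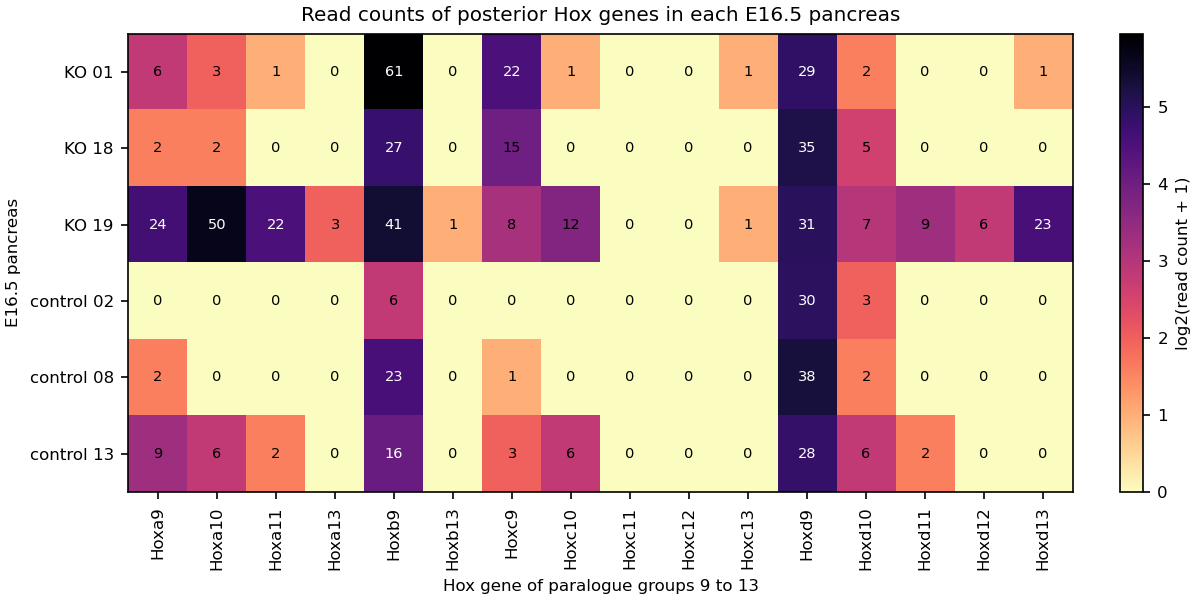
Read count of each of the 16 posterior Hox genes (columns) in each E16.5 library (rows, KO above control), with a log2(count + 1) colour scale. KO 19 holds 50 reads of Hoxa10 and 23 of Hoxd13, Hoxd9 is even at 28 to 38 reads in all 6 libraries, and Hoxc11 and Hoxc12 are at 0 throughout.

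Hoxc11 and Hoxc12 had no read in 6 E16.5 libraries with a pooled total of 107827215 counts, which allows up to 0.0278 CPM of each over the pool. Control pancreata had no read of 7 members, and KO pancreata none of 2. Such limits, from 3 counts of the total, cover counting error only.

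In the 60-week islets, Hox expression was low throughout, and no Hox gene passed the test between genotypes. No member reached 1 RPKM in either group, and the 39 members summed to 4.95 RPKM in KO and 4.57 RPKM in control islets. Hoxb5, Hoxb2, Hoxd8, Hoxb4 and Hoxa5 were the most abundant, with 9 to 65 reads per library, so single values carry a large counting error.

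Hoxd8 had 0.464, 0.679, 0.818, 0.436 and 0.619 RPKM in KO islets, against 0.617, 0.630, 0.815, 0.921 and 0.661 RPKM in control islets. Hoxb2 had 0.615, 0.521, 0.698, 0.577 and 0.662 RPKM in KO and 0.708, 0.574, 0.600, 0.728 and 0.341 RPKM in control islets. Both genes overlapped widely between genotypes. Hoxb5 had 0.529, 0.712, 0.631, 0.520 and 0.751 RPKM in KO and 0.351, 0.583, 0.344, 0.570 and 0.585 RPKM in control islets. Hoxb4, which enlarges the blood stem cell pool when overexpressed, had 0.360, 0.421, 0.757, 0.419 and 0.622 RPKM in KO and 0.571, 0.513, 0.521, 0.489 and 0.432 RPKM in control islets. The highest and the lowest Hoxb4 values were both in KO islets, and neither gene separated the genotypes.

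Of 9 members tested in islets, 0 passed an adjusted p of 0.05 by edgeR, DESeq2 or limma-voom, where 0.155% of all 14219 genes passed by edgeR. At an unadjusted p under 0.05 edgeR had 1 of the 9, against 7.18% of all genes. The member was Hoxa3, with 0.288, 0.197, 0.306, 0.211 and 0.289 RPKM in KO and 0.192, 0.134, 0.180, 0.165 and 0.156 RPKM in control islets. Each KO value was above each control value, which held in that direction for 0.781% of all genes, but the lowest KO and highest control value nearly met. Hoxa3 differed by 0.65 on the log2 scale (SE 0.21, edgeR adjusted p = 0.493), and the values rest on 12 to 26 reads per KO library and 8 to 14 per control library.

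Hoxb3 had a log2 fold change of 0.49 (SE 0.25), with 0.249, 0.394, 0.209, 0.301 and 0.417 RPKM in KO and 0.227, 0.137, 0.236, 0.197 and 0.309 RPKM in control islets. Hoxa5 had one of 0.37 (SE 0.27), with 0.554, 0.329, 0.351, 0.453 and 0.391 RPKM in KO and 0.213, 0.430, 0.191, 0.409 and 0.359 RPKM in control islets. Values of both genes overlapped between genotypes, and over all 9 members the edgeR adjusted p ran from 0.493 to 0.997. The median log2 fold change was 0.19 over the 9 members and -0.00 over all genes tested, and 7 of 9 were above 0, against 49.3% of all genes. That median was 0.06 without overlapping members and over the 26 members with at least 1 count, 0.08 in 1 fit over all 16 libraries and 0.37 under the stricter filter. Under mesenchyme scaling it was 0.39, beside 0.33 over all genes, and under pan-epithelial scaling 0.12, with 5 of 9 members above 0.

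The HoxC genes that rose at E16.5 were close to absent from islets. Hoxc8 and Hoxc9 had no read in 10 islet libraries, and 13 members in all had none (Hoxa13, Hoxb1, Hoxb13, Hoxc8, Hoxc9, Hoxc10, Hoxc11, Hoxc12, Hoxc13, Hoxd10, Hoxd11, Hoxd12 and Hoxd13). With a pooled total of 261666900 counts, this allows up to 0.0115 CPM of each. Hoxc6 had 1 to 4 reads in each KO and 3 to 7 in each control islet library, and Hoxc5 had 1 to 4 and 1 to 5. The 12 sympathetic markers summed to 75.8 to 214 CPM in KO islets and 70.1 to 160 CPM in control islets, with Tfap2b at 0 in both, and 0 of 8 tested passed by edgeR.

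Whether the genotype difference itself differed between tissues was tested by the interaction over all 16 libraries, as the islet difference minus that at E16.5. Of 23 members tested, 2 passed, both with a smaller KO over control ratio in islets, and 3.25% of all 15823 genes passed in that direction. Hoxc6 had an interaction of -2.67 on the log2 scale (SE 0.54, edgeR adjusted p = 0.00806) and Hoxb9 one of -2.40 (SE 0.60, edgeR adjusted p = 0.0249). In islets Hoxc6 averaged 0.0689 ± 0.0321 RPKM in KO and 0.126 ± 0.052 RPKM in controls, and Hoxb9 0.0440 ± 0.0164 and 0.0791 ± 0.0109 RPKM (SD, n = 5 each). Each KO islet value of Hoxb9 was below each control islet value (0.0166 to 0.0571 RPKM in KO, against 0.0658 to 0.0944 RPKM in controls). Of the 14219 genes tested in islets, 110 were non-overlapping in that direction. Both Hoxc6 and Hoxb9 rest on 1 to 7 islet reads per library. Neither was tested within islets, where both were too low for the filter, so both entered this fit through their E16.5 libraries. Without KO 01 the call of Hoxb9 was lost (-2.17, edgeR adjusted p = 0.0607). Hoxc5 did not pass (-1.25, SE 0.49, edgeR adjusted p = 0.165). Hoxc8 and Hoxc9 gave no usable estimate because every islet library was at 0.

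Islets and E16.5 pancreas were compared in control libraries, where age, tissue makeup, dissection and count table differ together and cannot be told apart. Of 18 members tested, all 18 were lower in islets by edgeR, while 44.7% of all 15388 genes were lower. None of their islet values reached an E16.5 value, and 50.1% of all genes were non-overlapping in that direction. The median log2 fold change was -3.79 over the 18 members and -0.04 over all genes, and it ran from -1.71 for Hoxc6 to -6.05 for Hoxc4.

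Hoxc4 averaged 0.0324 ± 0.0110 RPKM in control islets (SD, n = 5), against 2.67 ± 0.47 RPKM in control E16.5 pancreata (SD, n = 3). Hoxa5 averaged 0.320 ± 0.111 RPKM in islets and 13.1 ± 1.88 RPKM at E16.5, a log2 difference of -5.14 (SE 0.19, edgeR adjusted p = 5.04e-11). Hoxd8 was among the least reduced, with 0.729 ± 0.134 RPKM in islets and 4.41 ± 0.56 RPKM at E16.5 (log2 fold change -2.37, SE 0.16, edgeR adjusted p = 2.10e-08). Hoxd8 had the highest mean of all members in control islets and the seventh highest in control pancreata. HoxB gave 53.9% of Hox RPKM in control islets and 42.7% at E16.5, and HoxA 22.8% and 41.4%.

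**Figure D5:**
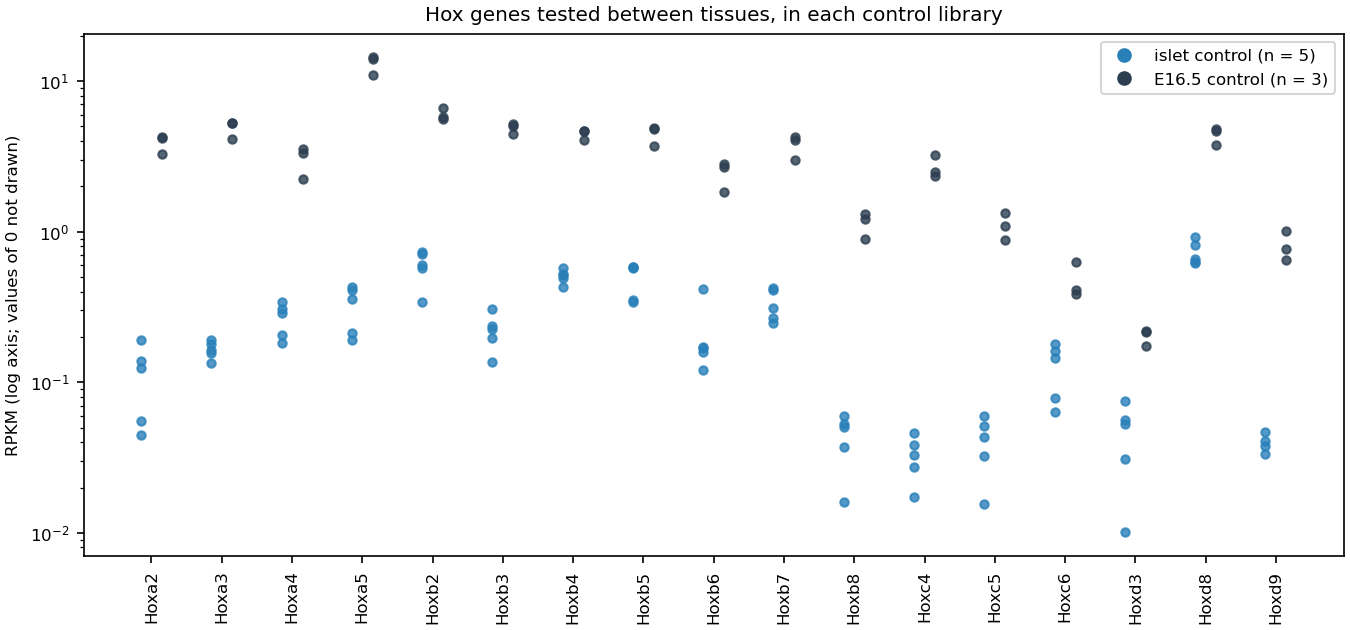
RPKM (log axis) of 17 of the 18 Hox genes tested between tissues in each control library, islets (5 libraries) left of E16.5 pancreas (3 libraries) for each gene, with values of 0 not drawn. Every islet point lies below every E16.5 point of the same gene, and the distance is widest for Hoxc4 and narrow for Hoxc6, Hoxd3 and Hoxd8.

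Mesenchymal markers moved in the same direction and further, and so did some other lists. All 16 genes of the mesenchyme and fibroblast list were lower in islets, with a median log2 fold change of -5.68, and the pan-epithelial list had a median of -0.90 with 12 of 15 lower. The median was -5.93 for the acinar list, with 12 of 13 lower, and -5.94 for liver markers, with 6 of 7 tested lower. It was -9.84 for mesothelium markers, with 5 of 6 lower, and -6.89 for red cell markers, with all 7 tested lower. The islet endocrine list went the other way, with a median of 4.71 and 14 of 15 higher. Scaled to the mesenchyme and fibroblast list, 12 of 18 Hox genes were called higher in islets and 0 lower. The median was then only 1.63 over the 18 members, beside 5.40 over all genes, and the first minus the second stayed at -3.76. That scaling shifts every gene alike, so the change of direction follows from the shift itself. The part of mesenchyme, or of any other cell type, in the Hox difference was not tested.

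Few partners and regulators of Hox genes passed the test between genotypes. Of 9 TALE cofactors, which bind DNA together with Hox proteins, 1 rose at E16.5. This was Meis1, at 126 ± 2.26 CPM in KO and 109 ± 1.68 CPM in control pancreata (SD, n = 3 each, log2 fold change 0.21, SE 0.05, edgeR adjusted p = 0.0475). None of 10 tested upstream regulators of Hox clusters and none of 22 Polycomb and Trithorax genes passed. Aldh1a2, which makes retinoic acid, had 82.2, 84.3 and 134 CPM in KO and 56.7 to 69.3 CPM in control pancreata, with no overlap and an edgeR adjusted p of 0.0610 (log2 fold change 0.72, SE 0.19). Aldh1a1, a related enzyme, had a log2 fold change of -0.06, and the Polycomb genes Suz12 and Rnf2 had 0.11 and 0.09.

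Among 17 tested homeobox and positional factors of foregut organs, 2 fell at E16.5. Hhex, needed for the ventral pancreas and liver, averaged 27.3 ± 1.93 CPM in KO and 37.5 ± 4.07 CPM in control pancreata (log2 fold change -0.46, SE 0.10, edgeR adjusted p = 0.0380). Mnx1, needed for the dorsal pancreas and beta cells, averaged 1.41 ± 0.44 CPM in KO and 3.03 ± 0.27 CPM in controls (log2 fold change -1.08, SE 0.25, edgeR adjusted p = 0.0466). Both groups have 3 animals for each gene. These 2 falls stood beside those of the pan-epithelial list and of the islet endocrine list, whose parts were not tested.

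The clusters also hold 18 other entries, microRNAs and long noncoding RNAs among them, of which 4 were tested at E16.5 and 0 passed by edgeR. Hotairm1, a noncoding RNA at the anterior end of HoxA, averaged 1.66 ± 0.26 CPM in KO and 1.54 ± 0.70 CPM in control pancreata, and Mira had 1.67 ± 0.72 and 0.800 ± 0.111 CPM (log2 fold change 1.05, SE 0.35, edgeR adjusted p = 0.11). In islets none of 9 cofactors, 9 upstream regulators, 22 Polycomb and Trithorax genes and 10 foregut factors passed by edgeR. The abundant cofactors Pbx2 and Meis3 differed there by -0.01 and 0.06 on the log2 scale, the upstream regulator Rarg by 0.04, and Bmi1 and Rnf2 by -0.11 each. Pdx1 and Isl1, islet transcription factors, differed by 0.12 and 0.01.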

How the data were processed

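The tables hold raw read counts per gene deposited by the authors, as whole numbers that sum to a different total per library. Per the labels' protocols, libraries were made from polyadenylated RNA with a Kapa mRNA HyperPrep kit. Trimmomatic, STAR 2.6.0, HTSeq 0.11.1, edgeR and mm10 are named, with no role, per the submitters' processing notes, and neither annotation nor strand setting is stated there. Counts were tested with edgeR 4.0.16 in R 4.3.3 (quasi-likelihood F test) after TMM scaling and filterByExpr at its default minimum count of 10, within each tissue and over all genes, with Benjamini-Hochberg adjustment at 0.05. The interaction used all 16 libraries. Standard errors were derived from each fold change with its F value. RPKM is TMM-scaled CPM divided by the length in kb that the authors deposited. Alternatives used DESeq2 1.42.0, limma 3.58.1, other scalings, filters and left-out libraries. The Hox genes, gene lists and tests were chosen with earlier results of these data known. Some items, 1 member among them, are not reported here one by one. Values per library are given for called members (at most 12 in a comparison), otherwise for the 5 with the lowest p, and for the 5 most abundant per tissue. Of other lists, up to 3 called genes or up to 2 of the most abundant per length are named. Hoxc4, Hoxb9, Hoxc9, Hoxa10, Hoxa11, Hoxd13, Dbh and Nr5a1 were described after their values were seen. Overlaps leave out 121 entries spanning over 1000000 bases. No 2 libraries of a group agreed within sampling noise (lowest chi-square per degree of freedom 4.90). The fits were tested on simulated counts. Nothing says that the animals came from separate litters.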

Additional observations from a re-analysis of the deposited data

Results flagged for a closer look

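In the 5 KO islet libraries, Hoxa4 had 0.0293 RPKM in library 812, from 1 read, far from the other 4 KO libraries relative to their range. Values of 9 members were looked at in 2 islet groups each, 18 in all, and this was the 1 that stood apart, about as many as chance gives at 1 in 20. Hoxc6 and Hoxb9 had genotype differences that were unlike in the tissues by the interaction test, with an islet minus E16.5 difference of -2.67 for Hoxc6 and -2.40 for Hoxb9 on the log2 scale. Both were higher in KO than in control pancreata at E16.5 in 3 of 3 KO libraries. With 1 to 7 reads in each islet library, neither was tested within islets.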

How the results depend on the processing

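The count of 3 Hox genes called at E16.5 was 2 to 4 under library totals, RLE size factors, mesenchyme scaling, both other filters, limma-voom, a robust fit and without overlapping members. It was 16 scaled to the pan-epithelial list, 5 with DESeq2 and 7 in 1 fit over all 16 libraries. Leaving out 1 library gave 0 to 4 with edgeR, 0 without control 02, 08 or 13, and 2 to 5 with DESeq2, an alternative chosen after seeing the data. Over 22 alternatives Hoxc6 and Hoxc8 stayed above 0 and passed in 19 each (adjusted p from 0.000451 to 0.138 and from 5.57e-08 to 0.135), Hoxc5 in 11 and Hoxc4 in 7. The 22 include the DESeq2 fits with 1 library left out, chosen after seeing the data, in each of which Hoxc6 and Hoxc8 passed. At E16.5 Hoxa3 reversed to -0.0095 under mesenchyme scaling and ran from -0.046 to 0.15 with 1 library left out, and Hoxb5 from -0.027 to 0.17. With DESeq2 and 1 library left out, the reversed values were -0.041 (without control 08) and -0.018 (without KO 18) for Hoxa3 and -0.023 and -0.015 for Hoxb5. No islet alternative called a Hox gene. There Hoxb2 and Hoxb4 reversed to -0.017 and -0.032 under pan-epithelial scaling, and ran from -0.081 to 0.15 and from -0.15 to 0.15 with 1 library left out. Between tissues the count of 18 was 11 without overlapping members, 23 in KO libraries and 18 to 19 with 1 library left out, all lower in islets. Scaled to the mesenchyme list 12 were called, all higher, and the reversed log2 fold changes were 0.77 for Hoxa3, 0.29 for Hoxa5, 1.19 for Hoxb3, 2.51 for Hoxb4, 0.48 for Hoxa2, 2.30 for Hoxb2, 2.45 for Hoxb5, 0.92 for Hoxb8, 2.14 for Hoxb7, 3.06 for Hoxd8, 0.94 for Hoxc5 and 3.68 for Hoxc6. These follow from the scaling, which shifted every gene alike, with a median of 5.40 over all genes and a Hox median minus that of all genes of -3.76, against -3.75 under TMM. The cause of the other changes was not tested. The interaction count of 2 was 1 to 2 with 1 library left out. In KO islets 4 members reached 0.5 RPKM and 5 reached 1 CPM, and in control islets 3 and 2. No paired analysis was possible because each library has its own animal number and the groups share none. In islets the 5 most abundant members had 9 to 65 reads per library, so their values carry a large counting error.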
